A study of Mus musculus with 18 samples.

Results

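The 6 arrays labelled FAK7 were set against the 6 arrays labelled FAK1, 12 of the 18 arrays of the series. Members were taken from the array names, FAK7 or FAK1 with a treated (T) or untreated (C) replicate number, and no measured value entered that choice. Each label held 3 treated and 3 untreated arrays, so that treatment was balanced and entered the fit as a term. Per the labels, all 12 samples were CD110+ tumour cells taken with magnetic beads from colon tumours of C57Bl/6 mice aged 17 weeks, mouse number 7 or mouse number 1. All of these mice carried Fapbl-Cre, a Cre recombinase transgene, a floxed Apc allele (Apc2lox14/+) and a further, doxycycline-controlled allele. The cells of all groups were kept with doxycycline, and the treated ones received 1 µM U73122, a phospholipase C inhibitor, for 24 h. By the labels each name stands for 1 mouse, which sex-linked transcripts, given below, go against for FAK1, and a difference between labels cannot be told apart from one between animals, sexes or preparations. Nothing in the labels places replicates in separate cultures, so that p-values cover the spread between the deposited samples and that spread may be technical.

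The values went against the labelled tissue in its defining markers. Epcam and Cdx2, which define colon epithelium, were detected on 0 of the 6 FAK7 and 0 of the 6 FAK1 arrays. Of 20 colon epithelium genes, 11 passed the filter on low signals and 8 were higher on FAK7, among them Krt8, Krt18, Cldn3 and Aqp8, and Muc2 was detected on all 6 FAK1 arrays. The FAK7 arrays carried the transcripts of liver and the FAK1 arrays those of brown fat, and the contrast is described here as a contrast of the transcripts that each label carried. Hepatocytes make most plasma proteins, clear ammonia as urea, turn cholesterol into bile acids, release glucose between meals and oxidise foreign compounds with cytochrome P450 enzymes. Brown adipocytes burn fatty acids in densely packed mitochondria, where the uncoupling protein Ucp1 lets protons bypass ATP synthase so that the energy leaves as heat. Both cell types handle large amounts of fatty acid, often with different members of the same protein family.

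Levels are normalized log2 signals of a gene's brightest probe, and a difference is FAK7 minus FAK1 on that scale, with its standard error (SE) after ±, unless the direction is stated. A gene was called at a limma adjusted p under 0.05 over all 10868 genes tested, and a second rule asked in addition for a difference of at least 4-fold. A gene was detected on an array when any of its probes had a detection p under 0.05, and signals below about 4.71 to 4.99 were at background. Detection and level can thus rest on different probes. Slc1a2, for example, was detected on 4 FAK1 arrays although its brightest probe reached at most 4.70 on FAK1. Where a gene was detected on none of a label's arrays, the ratio is a lower bound and written "at least". It was computed from normalized log2 means, with each undetected array raised, where lower, to the dimmest signal detected there. A gene detected on only some arrays of a label got no such bound, and its plain difference can rest on levels near background there. The brightest signal reached 14.77, which also limits ratios from above.

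An array detected 38.2% to 44.2% of its probes. Over the genes tested, the correlation between arrays was 0.968 to 0.993 within FAK7, 0.960 to 0.990 within FAK1 and 0.629 to 0.674 between the labels, as a description across genes of shared arrays. Sex-linked transcripts differed among the FAK1 arrays. Xist, made from the inactive X chromosome of females, was at 10.57, 10.43 and 10.37 on FAK1 treated replicates 1 to 3 and at 10.55 on untreated replicate 2, but at 4.63 and 4.98 on untreated replicates 1 and 3. Eif2s3y, on the Y chromosome, was at 10.21 and 10.08 on those last arrays, at 4.26 to 4.55 on the other 4 FAK1 arrays, and at 8.14 to 8.50 on all 6 FAK7 arrays, where Xist was at background. A single animal does not give both patterns seen under FAK1, and 4 of the 6 FAK1 arrays differed from the FAK7 arrays in these transcripts. Skeletal muscle transcripts moved in a similar pattern, with the median of 17 muscle genes at 12.14, 12.33 and 10.38 on FAK1 treated replicates 1 to 3, at 10.36 on untreated replicate 2, at 6.80 on untreated replicate 3 and at 4.62 on untreated replicate 1. On the FAK7 arrays that median was 4.43 to 4.60. With FAK1 represented only by untreated replicates 1 and 3, 846 of 912 genes at least 4-fold higher on FAK7 and 626 of 735 at least 4-fold higher on FAK1 kept that call.

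FAK7 treated replicate 1 and FAK1 untreated replicate 2 stood apart from the other arrays of their label for several of the genes described below. FAK7 untreated replicate 1 carried traces of brown fat transcripts, with Ucp1 at 5.91, Cidea at 5.91 and Cox8b at 6.78. With both of the arrays that stood apart left out, an alternative chosen after seeing the data, 886 of the 912 and 695 of the 735 genes kept their call at 4-fold.

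The markers that gave the labels their tissue names are given as a description, without a test. Hpx, the plasma protein that binds free haem, was at 14.44 to 14.69 (median 14.59) on FAK7 and at 4.32 to 4.62 (median 4.44) on FAK1. Every FAK7 array was above every FAK1 array by more than 9 log2 units, and Hpx was detected on none of the FAK1 arrays. Apoa1, the main protein of high-density lipoprotein, was at 13.90 to 14.28 (median 14.08) on FAK7 and at 4.72 to 5.15 (median 4.80) on FAK1, where 2 of 6 arrays detected it. Ucp1 was at 4.41 to 5.91 (median 4.50) on FAK7 and at 12.35 to 13.85 (median 13.51) on FAK1. Cidea, a lipid droplet protein of brown adipocytes, was at 4.39 to 5.91 (median 4.63) on FAK7 and at 12.97 to 13.56 (median 13.15) on FAK1. For Ucp1 and Cidea the labels did not overlap, and 1 FAK7 array, untreated replicate 1, detected each of them.

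**Figure D1:**
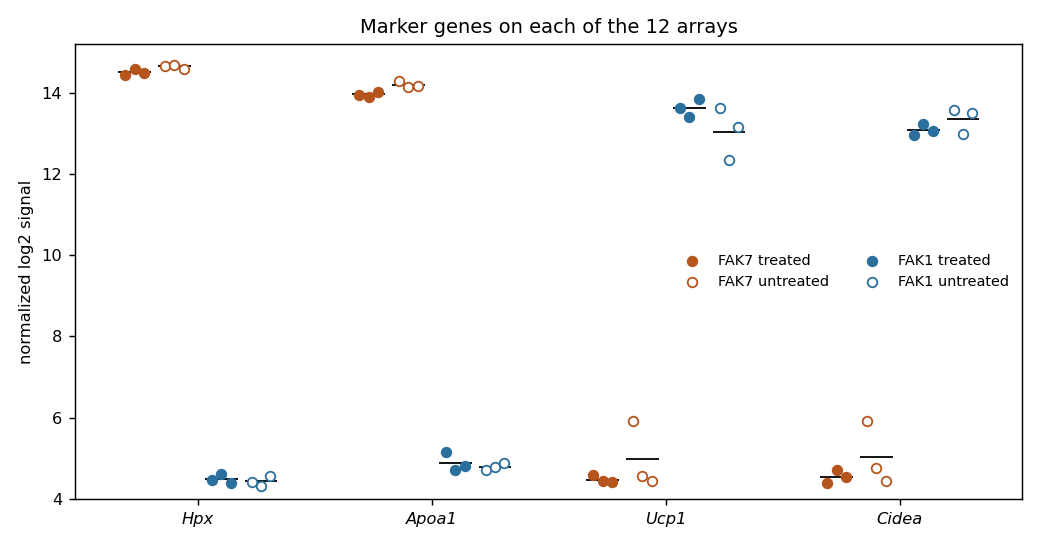
Normalized log2 signal (vertical axis) of the 4 marker genes on each of the 12 arrays, with filled points for treated and open points for untreated arrays and a line at the mean of each group of 3. Hpx and Apoa1 lie near the top of the scale on all FAK7 arrays and near 4.5 to 5 on FAK1 arrays, Ucp1 and Cidea the reverse, and 1 open FAK7 point sits at 5.91 for Ucp1 and for Cidea.

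The sequences upstream of some of the genes that differed most are shown so that the promoters of liver and of brown fat genes can be set side by side. They are the 250 bases before the annotated start in RefSeq (GRCm38.p6), 5′ to 3′ on the gene's strand, with capitals for matches to the motifs named below. Hpx lies at chr7:105600117-105600366 (minus strand), Fga, the fibrinogen alpha chain, at chr3:83025903-83026152 (plus strand), and Cyp8b1, the sterol 12-alpha-hydroxylase of bile acid synthesis, at chr9:121916306-121916555 (minus strand). Ucp1 lies at chr8:83290098-83290347 (plus strand) and Cox7a1, a cytochrome c oxidase subunit of brown fat and muscle, at chr7:30183921-30184170 (plus strand).
Hpx: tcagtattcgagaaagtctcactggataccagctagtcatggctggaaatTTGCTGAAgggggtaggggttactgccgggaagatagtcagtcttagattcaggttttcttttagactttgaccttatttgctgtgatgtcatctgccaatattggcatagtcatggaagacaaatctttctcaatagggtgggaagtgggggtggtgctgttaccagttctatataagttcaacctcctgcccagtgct
Fga: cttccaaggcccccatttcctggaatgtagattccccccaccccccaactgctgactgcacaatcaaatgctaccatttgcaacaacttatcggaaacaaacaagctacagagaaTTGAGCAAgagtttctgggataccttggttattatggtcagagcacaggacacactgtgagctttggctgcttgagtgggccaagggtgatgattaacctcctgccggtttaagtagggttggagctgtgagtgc
Cyp8b1: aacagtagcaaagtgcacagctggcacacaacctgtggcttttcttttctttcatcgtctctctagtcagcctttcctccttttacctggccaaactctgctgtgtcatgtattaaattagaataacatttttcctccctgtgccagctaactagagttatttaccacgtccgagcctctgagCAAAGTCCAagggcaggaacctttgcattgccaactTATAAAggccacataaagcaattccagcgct
Ucp1: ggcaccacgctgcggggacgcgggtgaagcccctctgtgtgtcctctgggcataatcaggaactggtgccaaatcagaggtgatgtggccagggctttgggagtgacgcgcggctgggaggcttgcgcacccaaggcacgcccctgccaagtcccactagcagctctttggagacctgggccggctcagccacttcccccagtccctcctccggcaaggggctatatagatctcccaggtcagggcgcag
Cox7a1: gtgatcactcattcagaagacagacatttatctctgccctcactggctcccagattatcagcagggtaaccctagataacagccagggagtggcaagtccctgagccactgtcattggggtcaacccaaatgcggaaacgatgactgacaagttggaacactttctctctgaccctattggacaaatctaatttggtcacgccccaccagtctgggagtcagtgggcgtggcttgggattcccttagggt
The capitals mark TTGCNNAA, a C/EBP motif, 200 bases before the start of Hpx and, on the other strand, 135 bases before that of Fga. In Cyp8b1 they mark CAAAGTCCA, an HNF4 motif, 67 bases before the start and TATAAA 31 bases before it. No motif of the set was in the windows of Ucp1 and Cox7a1. Cyp8b1 was picked for its motif after the values were seen; its level was 7.26 to 11.76 (median 10.94) on FAK7 and 4.56 to 5.09 (median 4.87) on FAK1.

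A promoter sequence was matched by symbol for 284 of the 348 genes at least 16-fold higher on FAK7, for 91 of the 118 at least 16-fold higher on FAK1 and for 8786 of the 10868 genes tested. The C/EBP motif TTGCNNAA was in 20.4% of the first set, 12.1% of the second and 9.57% of all genes tested (10.8% of the 27025 genes in the table), searched on both strands within 250 bases before the start. The HNF4 motif CAAAGTCCA was in 2.82% of the first set, which is 8 genes, in 0 genes of the second and in 0.546% of all tested. The 8 genes were Agxt2, Aspdh, Cyp2c67, Cyp2c70, Cyp3a11, Cyp8b1, Gpnmb and Tlcd4. The FOXA motif TGTTTAC was in 4.93%, 1.1% and 2.98% of the same sets, and TATAAA in 20.4%, 18.7% and 8.93%. The cyclic AMP motif TGACGTCA was in 0 genes of the first set, in 2.2% of the second (Ffar3 and Pnpla3) and in 2.95% of all tested. Among all 27025 genes with a promoter sequence, CAAAGTCCA was in 0.451%, TGTTTAC in 3.54%, TATAAA in 14.3% and TGACGTCA in 1.77%. The HNF1 consensus, the DR1 direct repeat of nuclear receptors, the NFI palindrome and an ERR motif (TCAAGGTCA) were in 0 genes of both sets. They were in at most 0.353% of all genes tested. TGACGTCA and the HNF1 and NFI motifs read the same on both strands, overlaps between different motifs were not removed, and these shares describe letters only.

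Most genes differed between the labels. Of the 10868 genes tested, 8625 were called (79.4%), 4115 higher on FAK7 (37.9%) and 4510 higher on FAK1 (41.5%). The median difference of all genes was -0.06. Quantile normalization gave all arrays the same signal distribution, which limits how far that median and the split between labels can move. The median size of a difference was 0.75 log2 units. At least 4-fold, 912 genes were higher on FAK7 (8.39%) and 735 on FAK1 (6.76%), and at least 16-fold, 348 on FAK7 (3.2%) and 118 on FAK1 (1.09%). The arrays of the labels did not overlap for 6458 genes (59.4%), 28.7% of all genes being higher on FAK7 and 30.7% on FAK1, so that a gene without overlap is common. Detection on 6 of 6 FAK7 and 0 of 6 FAK1 arrays was found for 336 genes (3.09%), and the reverse for 421 (3.87%). Against this background, a list in which most members are called is no result about the list. Shares past 4-fold stand beside 8.39% and 6.76% as a description only, since many list members passed the filter through the label where they are high. Of 20 coagulation genes with a probe, 19 were detected on all FAK7 arrays and 2 on all FAK1 arrays. Among the 10868 genes tested, 7550 were detected on all arrays of both labels. The lists and members below were chosen with earlier results of these data known and carry no test of their own.

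**Figure D2:**
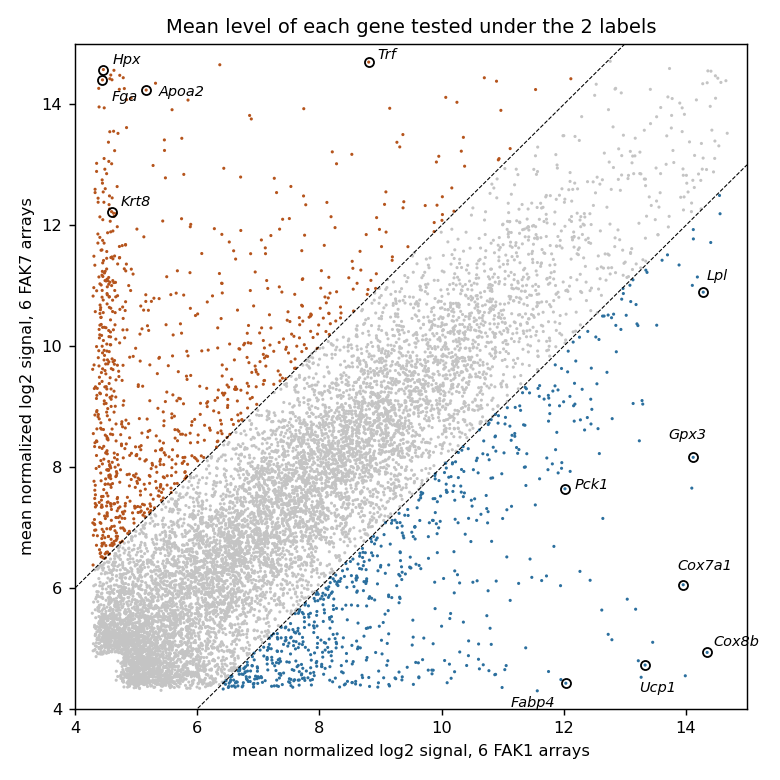
Mean normalized log2 signal of each of the 10868 genes tested on the 6 FAK1 arrays (horizontal axis) and the 6 FAK7 arrays (vertical axis), with genes at least 4-fold higher on FAK7 in orange, at least 4-fold higher on FAK1 in blue, and dashed lines at a 4-fold difference. The left edge holds liver genes at background on FAK1, such as Hpx and Fga, and the lower edge brown fat genes at background on FAK7, such as Fabp4 and Ucp1.

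Among genes detected on all 12 arrays, the largest differences toward FAK7 were those of secreted and metabolic liver proteins. Apoa2, the second apolipoprotein of high-density lipoprotein, was at 14.08 to 14.46 (median 14.22) on FAK7 and 4.78 to 5.80 (median 5.04) on FAK1, a difference of 9.07 ± 0.15 (SE; adjusted p = 1.56e-15; 539-fold). The labels lay more than 8 log2 units apart on every array pair. Itih4, a plasma protease inhibitor chain, differed by 8.32 ± 0.18 and Apoc3, an inhibitor of triglyceride clearance, by 8.29 ± 0.18. Gsta3, a glutathione transferase, differed by 8.22 ± 0.21, with FAK7 treated replicate 1 lowest at 13.29 and the other FAK7 arrays at 14.18 to 14.29. Fgl1, a fibrinogen-like protein of hepatocytes, differed by 7.95 ± 0.22, but its 3 probes ranged from 1.11 to 7.95. Ass1 of the urea cycle (7.78 ± 0.12), Gnmt, which disposes of methyl groups (7.71 ± 0.12), and the liver mitochondrial carrier Slc25a47 (7.69 ± 0.14) completed the 8.

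Of the genes detected on every FAK7 array and on no FAK1 array, Hpx had the largest bound, at least 861-fold. Apoa4, an apolipoprotein of triglyceride transport, followed with 14.29 to 14.53 (median 14.42) on FAK7 and 4.46 to 4.80 (median 4.59) on FAK1, at least 766-fold. Fga was at 14.09 to 14.60 (median 14.41) and 4.31 to 4.73 (median 4.41), at least 765-fold. All 6 FAK7 arrays were near the top of the scale for these genes and all 6 FAK1 arrays at background. Cyp2a5, a cytochrome P450, was higher by at least 694-fold, the carboxylesterase Ces1c by at least 561-fold and Hamp, the iron hormone hepcidin, by at least 425-fold. Itih3 was higher by at least 422-fold and Urah, an enzyme of urate breakdown, by at least 311-fold.

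Toward FAK1, the largest differences among genes detected on all 12 arrays included genes of mitochondria, cyclic AMP signalling and caveolae. Cox7a1 was at 13.08 to 14.18 (median 14.12) on FAK1 and 5.43 to 6.57 (median 6.12) on FAK7, 7.90 ± 0.22 higher on FAK1 (adjusted p = 3.15e-13; 239-fold). FAK1 untreated replicate 2, at 13.08, was the lowest FAK1 array and still more than 6 log2 units above every FAK7 array. Prkar2b, a regulatory subunit of protein kinase A, was at 12.98 to 13.30 (median 13.24) on FAK1 and 5.32 to 6.16 (median 5.57) on FAK7 (7.53 ± 0.13 higher on FAK1), with its probes between -7.53 and -3.96. Cav1, the coat protein of caveolae, was higher on FAK1 by 7.23 ± 0.11 and Acss1, which activates acetate in mitochondria, by 6.99 ± 0.12. Impdh1, of guanine nucleotide synthesis, was higher by 6.31 ± 0.19 and Gpx3, a secreted glutathione peroxidase, by 5.96 ± 0.16. ND4L, a complex I subunit encoded in mitochondrial DNA, was higher by 6.45 ± 0.11. Acin1, a chromatin condensation factor, was higher by 5.99 ± 0.16 on its brightest probe, while other probes of the gene came down to -0.18.

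Of the 8 largest bounds toward FAK1, 3 belonged to skeletal muscle genes whose levels varied from array to array. Myl1, a myosin light chain, was at 11.54 to 14.71 (median 13.43) on FAK1 and 4.37 to 4.89 (median 4.46) on FAK7, at least 330-fold. Acta1, skeletal muscle actin, was at 4.93 to 14.42 (median 13.09) on FAK1, with untreated replicate 1 at 4.93 and untreated replicate 3 at 9.45 against 13.05 to 14.42 on the other 4. Tnnc2, fast troponin C, ran from 5.52 to 13.86. Of the fat genes among the 8, Fabp4 and Aoc3 were steady across FAK1. Fabp4, the fatty acid carrier of adipocytes, was at 11.82 to 12.13 (median 12.06) on FAK1 and 4.23 to 4.65 (median 4.42) on FAK7, at least 140-fold, and Aoc3, an amine oxidase of adipocytes and vessels, at 11.73 to 12.23 (median 11.96) on FAK1, at least 133-fold. Timp4, a metalloproteinase inhibitor, was higher by at least 62.7-fold, Lncbate10, a long noncoding RNA of brown fat, by at least 71.2-fold and ND6, a further mitochondrially encoded subunit, by at least 69.6-fold.

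Plasma proteins were higher on FAK7 almost throughout. Of 19 carrier and binding proteins tested, 19 were higher on FAK7, 18 of them at least 4-fold, with a median difference of 6.74. Serpina1b, an alpha-1 antitrypsin, was at 14.45 to 14.54 (median 14.47) on FAK7 and 4.51 to 5.04 (median 4.70) on FAK1, and Ahsg, fetuin A, at 14.39 to 14.49 (median 14.45) and 4.56 to 5.04 (median 4.76). Neither gene overlapped between labels. Ttr, the thyroxine and retinol carrier, differed by 9.19 ± 0.15. Alb, serum albumin, singled out after its values were seen, was the member below 4-fold. Its only probe averaged 5.81 ± 0.39 (SD) on FAK7 and 4.64 ± 0.20 on FAK1, detected on 6 of 6 and 1 of 6 arrays. Of 19 coagulation and fibrinolysis genes, 19 were higher on FAK7 and 19 at least 4-fold, with a median of 6.96. Among them Fgg, the fibrinogen gamma chain, was at 12.83 to 13.23 (median 13.04) on FAK7 and undetected on FAK1 (at least 294-fold), and F2, prothrombin, at 12.26 to 12.54 (median 12.38) (at least 188-fold). Plg, plasminogen, differed by 8.21 ± 0.10.

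Complement genes followed, with 14 of 15 tested higher on FAK7, 14 at least 4-fold, and a median of 5.66. Cfi, the protease that inactivates C3b, differed by 7.95 ± 0.11, C4bp, a binding protein for C4b, by 7.30 ± 0.099 and C9, a pore subunit, by 6.87 ± 0.11. Hc, complement C5, was at 10.75 to 11.25 (median 10.96) on FAK7 and at 4.26 to 4.38 (median 4.29) on FAK1, at least 70.6-fold. C8b was the member that went the other way, at 9.81 to 10.61 (median 10.28) on FAK7 and 11.07 to 11.79 (median 11.42) on FAK1, 1.18 ± 0.15 higher on FAK1. It was detected on all 12 arrays.

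**Figure D3:**
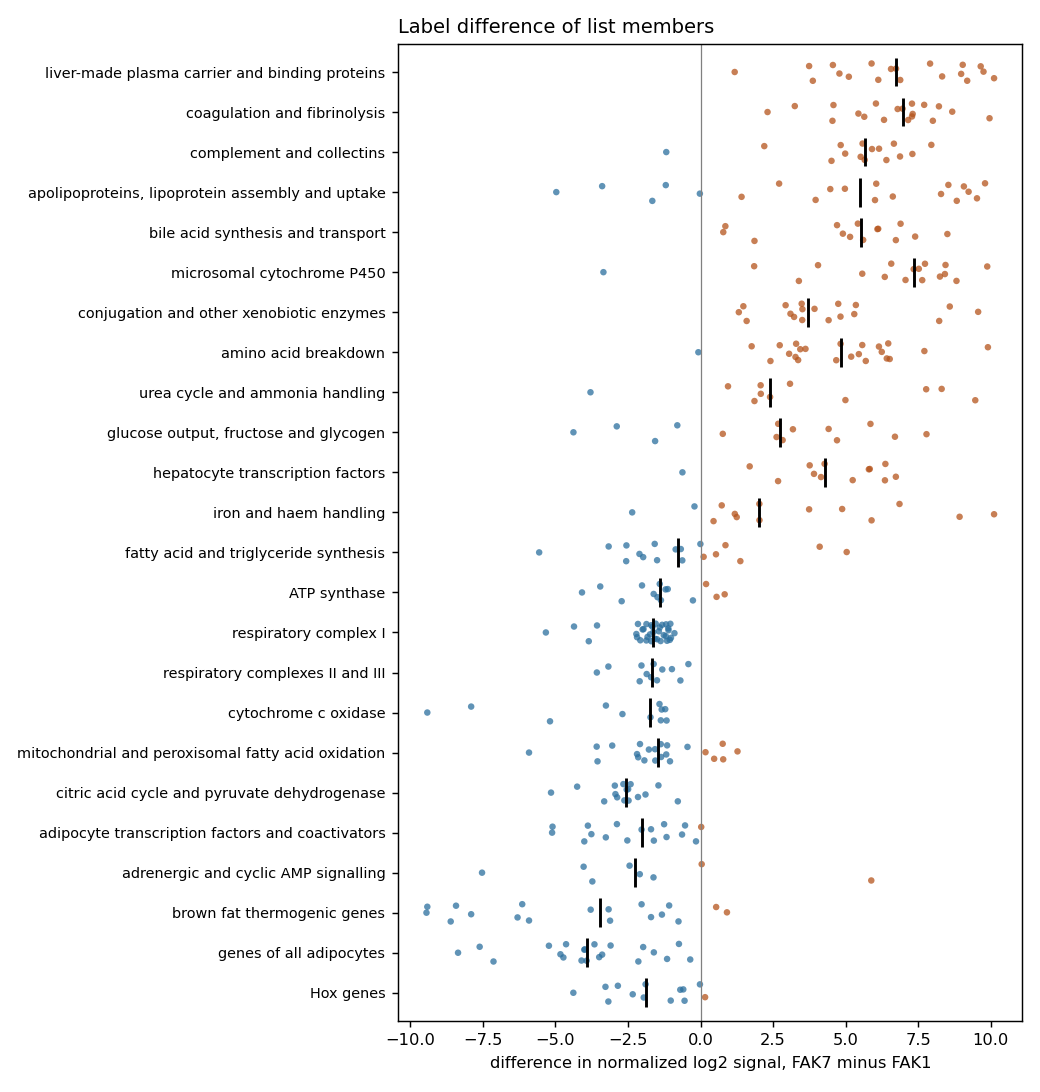
Difference in normalized log2 signal, FAK7 minus FAK1 (horizontal axis), of each tested member of 24 gene lists, with orange points above 0, blue points below 0 and a black bar at each list's median. Liver lists have medians from 2.03 (iron and haem handling) to 7.34 (microsomal cytochrome P450), and fat and mitochondrial lists medians from -0.77 (fatty acid synthesis) to -3.93 (genes of all adipocytes).

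Lipoprotein genes held members in both directions. Of 20 tested, 15 were higher on FAK7 (14 at least 4-fold) and 4 on FAK1, with a median of 5.49. Apolipoproteins made the upper end, with Apoa4, Apoc4 (9.53 ± 0.15), Apoa1 and Apoa2. Of the 4 genes higher on FAK1, the 3 with the largest differences, given next, act at the vessel wall, where lipoproteins are unloaded. Lpl, lipoprotein lipase, was at 14.15 to 14.41 (median 14.31) on FAK1 and 10.33 to 12.14 (median 10.70) on FAK7 (3.39 ± 0.23 higher on FAK1). Vldlr, a receptor that takes up remnants, was at 11.30 to 11.61 (median 11.41) and 5.95 to 6.92 (median 6.57) (4.97 ± 0.14 higher on FAK1), and Gpihbp1, which anchors the lipase on capillaries, was 1.66 ± 0.12 higher. Endothelial markers, given below, were also higher on FAK1 for 12 of 14, and their part in these differences was not tested.

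Of 14 bile acid genes, 14 were higher on FAK7 and 11 at least 4-fold, with a median of 5.51. Slco1b2, a hepatocyte uptake carrier, was at 12.18 to 13.32 (median 13.21) on FAK7 and 4.42 to 4.92 (median 4.48) on FAK1, with FAK7 treated replicate 1 lowest at 12.18. Slc27a5, which conjugates bile acids to coenzyme A, was higher by at least 126-fold, Acox2, of side-chain shortening, by 6.89 ± 0.12 and Nr1h4, the bile acid receptor, by at least 83.6-fold. Of 17 cytochrome P450 genes, 16 were higher on FAK7 and 15 at least 4-fold, with a median of 7.34. Cyp1a2 was at 11.32 to 13.49 (median 13.18) on FAK7 and 4.37 to 4.65 (median 4.46) on FAK1; FAK7 treated replicate 1, at 11.32, lay below the other 5. Cyp4a14, a fatty acid hydroxylase, differed by 8.82 ± 0.20 and Cyp2d10 by 8.42 ± 0.14. Cyp2b10 was the exception, at 5.77 to 7.92 (median 6.57) on FAK7 and 8.17 to 11.68 (median 10.04) on FAK1, 3.35 ± 0.53 higher on FAK1 (adjusted p = 5.12e-05), with no overlap. Of 18 conjugation and other xenobiotic enzymes, 18 were higher on FAK7 and 15 at least 4-fold (median 3.72), among them Ugt2b36, a glucuronosyltransferase (8.59 ± 0.14), and Sult1d1, a sulfotransferase (at least 33.9-fold).

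Amino acid breakdown and urea synthesis were higher on FAK7. Of 23 amino acid genes, 22 were higher on FAK7 and 21 at least 4-fold, with a median of 4.83, and of 11 urea cycle and ammonia genes 10 were higher on FAK7, 8 at least 4-fold. Mat1a, which makes S-adenosylmethionine in liver, was at 14.32 to 14.56 (median 14.52) on FAK7 and 4.39 to 4.90 (median 4.48) on FAK1. Arg1, arginase, was at 13.79 to 14.21 (median 13.92) and 4.30 to 4.84 (median 4.36), and Cps1, which starts the cycle, at 12.45 to 13.05 (median 12.74) and 4.33 to 4.59 (median 4.45), at least 243-fold. The labels were far apart for all 3 genes. Uroc1 and Ftcd, of histidine breakdown, differed by 6.52 ± 0.13 and 6.47 ± 0.11, and Asl by 4.99 ± 0.15. Glul, glutamine synthetase, which captures the last ammonia around the central vein, went the other way. It was at 5.38 to 6.44 (median 6.18) on FAK7 and 9.37 to 10.20 (median 9.94) on FAK1, 3.79 ± 0.18 higher on FAK1 (adjusted p = 1.85e-10), without overlap.

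Genes that mark the position of hepatocytes along the lobule were called toward FAK7 on both sides. Of 10 pericentral genes, 8 were higher on FAK7 (5 at least 4-fold; median 2.29), and of 9 periportal genes 8 were (8 at least 4-fold; median 6.47). Cyp2e1, pericentral, was at 13.93 to 14.31 (median 14.16) on FAK7 and 9.41 to 10.85 (median 10.09) on FAK1, and Gulo, of ascorbate synthesis, was higher by at least 108-fold. Cyp2f2, periportal, was at 11.27 to 13.41 (median 13.07) and 5.39 to 6.24 (median 5.81). FAK7 treated replicate 1 was lowest for Gulo and Cyp2f2. Against FAK7 went the pericentral genes Glul and Axin2, a Wnt target (0.68 ± 0.22 higher on FAK1, labels overlapping), and the periportal gene Pck1.

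Of 14 genes of glucose output, fructose and glycogen, 10 were higher on FAK7 (9 at least 4-fold) and 3 on FAK1, with a median of 2.75. Fbp1, fructose bisphosphatase of liver, was at 12.03 to 12.56 (median 12.45) on FAK7 and 4.32 to 4.85 (median 4.55) on FAK1. G6pc, which releases free glucose, was at 7.67 on FAK7 treated replicate 1 and at 11.47 to 12.30 on the other FAK7 arrays, and undetected on FAK1 (at least 80.3-fold). Khk, which phosphorylates fructose, differed by 4.70 ± 0.17. Pck1, the cytosolic enzyme of gluconeogenesis that also feeds glycerol synthesis in fat, was at 11.69 to 12.34 (median 11.96) on FAK1 and only 5.94 to 8.67 (median 7.81) on FAK7 (4.38 ± 0.32 higher on FAK1; 20.8-fold). Ppp1r3c, a glycogen targeting subunit, and Pygl, glycogen phosphorylase of liver, were higher on FAK1 by 2.89 ± 0.39 and 1.57 ± 0.15. Of 3 ketone body genes, Bdh1, which makes hydroxybutyrate, was higher on FAK7 by at least 79.8-fold, and Oxct1, which spends ketone bodies and is low in hepatocytes, was at 7.52 to 8.48 (median 7.89) on FAK7 and 11.19 to 12.43 (median 12.24) on FAK1. Acat1 was 0.86 ± 0.18 higher on FAK7 with overlapping labels.

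Transcription factors of each cell type followed the same split. Of 13 hepatocyte factors, 12 were higher on FAK7 and 11 at least 4-fold, with a median of 4.27. Hnf4a, a nuclear receptor central to hepatocyte identity, was at 11.01 to 11.62 (median 11.20) on FAK7 and 4.63 to 5.36 (median 4.74) on FAK1. Foxa3, a forkhead factor, was higher by at least 63.3-fold and Creb3l3, a membrane-bound factor of the fasting response, by at least 44.8-fold. Tbx3 was higher on FAK1 by 0.62 ± 0.15, with overlap. Of 17 adipocyte factors and coactivators, 15 were higher on FAK1, 9 at least 4-fold and none on FAK7, with a median of -2.03. Pparg, the receptor that drives adipocyte differentiation, was at 11.76 to 12.08 (median 11.89) on FAK1 and 7.57 to 8.19 (median 7.88) on FAK7. Ebf2, a selector of brown fat identity, was at 9.36 to 10.18 (median 9.55) on FAK1 and undetected on FAK7 (at least 26.5-fold), and Ebf3 and Ebf1 were higher on FAK1 by 5.11 ± 0.11 and 3.88 ± 0.16.

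Of 18 brown fat thermogenic genes, 16 were higher on FAK1 and 12 at least 4-fold, with a median of -3.48. Fabp3, a fatty acid carrier of oxidative tissues, was at 13.48 to 14.23 (median 14.10) on FAK1 and 4.35 to 5.14 (median 4.43) on FAK7, 9.44 ± 0.15 higher on FAK1 (696-fold). Cox8b, a cytochrome c oxidase subunit, was at 14.11 to 14.63 (median 14.30) on FAK1 and 4.36 to 6.78 (median 4.40) on FAK7, where untreated replicate 1 was at 6.78 and the other arrays at 4.36 to 5.26. Those 2 genes were detected on 1 and 2 of the 6 FAK7 arrays, so that the 696-fold of Fabp3 is a ratio to levels near background. Slc29a1, a nucleoside carrier, and Mpzl2, an adhesion molecule, were higher on FAK7, by 0.91 ± 0.22 and 0.54 ± 0.13, with overlap for both. Muscle expresses several of these genes, and its part in these differences was not tested. With FAK1 represented by untreated replicates 1 and 3 alone, where muscle transcripts were lower but not absent, the median of the list was -3.54. Over the 12 arrays the list's median level was 11.07 to 11.37 on FAK1 and 5.57 to 5.98 on FAK7.

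All 21 genes of adipocytes in general were higher on FAK1, 16 at least 4-fold, with a median of -3.93. Adipoq, adiponectin, was at 13.35 to 13.54 (median 13.48) on FAK1 and 4.55 to 6.40 (median 4.73) on FAK7, and Adig, a lipid droplet protein, differed by 7.13 ± 0.14. Of 8 genes linked to white fat, 4 were higher on FAK1 (4 at least 4-fold) and 4 on FAK7 (2 at least 4-fold). Lep, leptin, was at 7.17 to 9.45 (median 8.99) on FAK1, lowest on untreated replicate 2 at 7.17, and at 4.57 to 5.07 (median 4.92) on FAK7. Agt, angiotensinogen, which hepatocytes also secrete, was at 10.30 to 11.10 (median 10.80) on FAK7 and 4.55 to 6.48 (median 5.49) on FAK1. Of 9 secreted products of fat, 7 were higher on FAK1 (5 at least 4-fold), among them Nampt (2.72 ± 0.13), an enzyme of NAD synthesis. Fgf21, a fasting hormone made by liver, was higher on FAK7 (5.45 ± 0.25), as was Rarres2, chemerin (3.19 ± 0.099), whose 3 probes ranged from -1.83 to 3.19.

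Of 8 adrenergic and cyclic AMP genes, 6 were higher on FAK1, 5 at least 4-fold, with a median of -2.27. Gnas, the stimulatory G protein, was at 11.69 to 12.62 (median 12.47) on FAK1 and 8.38 to 8.82 (median 8.63) on FAK7. Adcy6, an adenylyl cyclase, was higher on FAK1 by 2.45 ± 0.16 and Pde4d, a phosphodiesterase, by 4.03 ± 0.16, although 1 of the 3 Pde4d probes gave 0.49. Gcgr, the glucagon receptor, which feeds the same second messenger in hepatocytes, was the member higher on FAK7, at 9.92 to 10.40 (median 10.35) against 4.23 to 4.79 (median 4.34), at least 43.7-fold.

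Mitochondrial genes were higher on FAK1 in nearly every list. All 16 genes of the citric acid cycle and pyruvate dehydrogenase were higher on FAK1, 13 at least 4-fold, with a median of -2.58. Cs, citrate synthase, was at 13.18 to 13.49 (median 13.28) on FAK1 and 8.90 to 9.15 (median 9.05) on FAK7 (4.25 ± 0.076; 19.1-fold), and Dld, a shared dehydrogenase subunit, at 11.70 to 11.99 (median 11.83) and 6.45 to 6.92 (median 6.71). Ogdh was higher by 3.32 ± 0.089 and Idh2 by 2.95 ± 0.085. Of 35 complex I subunits, 35 were higher on FAK1 but 8 at least 4-fold, with a median of -1.62. Ndufb4 (5.33 ± 0.16) and Ndufb5 (4.36 ± 0.11) led. All 12 genes of complexes II and III (4 at least 4-fold; median -1.66) and 11 of 11 of cytochrome c oxidase (5 at least 4-fold; median -1.72) were higher on FAK1. Among these Sdhb, the iron-sulphur subunit of complex II, was at 13.34 to 13.65 (median 13.53) on FAK1 and 10.01 to 10.61 (median 10.36) on FAK7.

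ATP synthase was less uniform, with 11 of 14 subunits higher on FAK1 (4 at least 4-fold) and 3 on FAK7 (0 at least 4-fold), with a median of -1.39. Atp5a1 was at 12.98 to 13.24 (median 13.17) on FAK1 and 8.78 to 9.32 (median 9.07) on FAK7, while Atp5g3, a subunit of the proton channel, was 0.83 ± 0.096 higher on FAK7. Atp5g2 was higher on FAK7 by 0.19 ± 0.078 with overlap, and Atp5j by 0.55 ± 0.098 on its brightest probe, its 3 probes spreading from -2.98 to 0.55. With FAK1 untreated replicates 1 and 3 alone, the medians were -2.56 for the citric acid cycle, -1.61 for complex I, -1.42 for cytochrome c oxidase and -1.29 for ATP synthase.

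Of 22 genes of fatty acid oxidation, 17 were higher on FAK1 (7 at least 4-fold) and 4 on FAK7, with a median of -1.47. Cpt1b, the carnitine palmitoyltransferase of muscle and brown fat, was at 11.79 to 12.06 (median 11.96) on FAK1 and 5.72 to 6.53 (median 5.92) on FAK7. Hadhb, of the trifunctional protein, was at 14.12 to 14.28 (median 14.17) and 11.03 to 11.37 (median 11.14), and Acadl and Hadh were higher on FAK1 by 3.58 ± 0.11 and 3.55 ± 0.17. Genes higher on FAK7 were Acsl5 (1.27 ± 0.11), an acyl-CoA synthetase, and the peroxisomal Ehhadh (0.78 ± 0.29), the latter with overlap, as for Decr1 (0.76 ± 0.15). Of 18 genes of fatty acid and triglyceride synthesis, 11 were higher on FAK1 (5 at least 4-fold) and 3 on FAK7 (2 at least 4-fold). Pnpla3 was at 9.42 to 11.90 (median 10.04) on FAK1 and 4.72 to 5.10 (median 4.86) on FAK7. Desaturases of polyunsaturated fatty acids went toward FAK7, with Fads2 at 9.03 to 10.08 (median 9.59) against 4.35 to 4.88 (median 4.60) and Fads1 4.11 ± 0.22 higher. Thrsp, a regulator of fat synthesis, Lpin1 and Acacb were higher on FAK1 by 3.17 ± 0.70, 2.56 ± 0.38 and 2.55 ± 0.28, and FAK7 treated replicate 1 was the lowest FAK7 array for the latter pair, at 7.08 and 7.61. The Thrsp difference was -1.23 on untreated and -5.10 on treated arrays, with treated FAK7 arrays at 5.51, 7.73 and 9.38 and untreated ones at 10.73, 11.04 and 11.87. Thrsp was not among the named genes, given below, whose label difference was called as dependent on treatment.

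Iron and growth hormone genes held members in both directions. Of 14 iron and haem genes, 11 were higher on FAK7 (8 at least 4-fold; median 2.03), with Trf, transferrin, at 14.61 to 14.77 (median 14.71) on FAK7 and 7.97 to 9.66 (median 8.78) on FAK1, and Hamp2 6.86 ± 0.22 higher. Tfrc, the transferrin receptor, was 2.36 ± 0.27 higher on FAK1. Fth1, the ferritin heavy chain, differed by 0.21 ± 0.079 toward FAK1 with overlap. Of 14 genes of the growth hormone and insulin-like growth factor axis, 7 were higher on FAK7 (5 at least 4-fold) and 4 on FAK1 (1 at least 4-fold). The secreted Igf1 (4.66 ± 0.21) and its partner Igfals (4.57 ± 0.23) were higher on FAK7, and so was Igfbp2 (at least 73.4-fold). Igf1r, the receptor, was at 6.86 to 7.43 (median 7.004) on FAK1 and 5.75 to 6.29 (median 5.83) on FAK7, and Igfbp3 was 2.17 ± 0.27 higher on FAK1.

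Isoforms of the same protein fell on opposite sides in some families. Of 34 isoform families with 101 members, 76 members were tested, 26 families had several tested members, and 16 of these held genes called in opposite directions. Since 37.9% of all genes were called toward FAK7 and 41.5% toward FAK1, opposed calls alone are common. In 6 of the 26 families the opposed members each passed 4-fold, which 8.39% and 6.76% of all genes did. Among glucose carriers, Slc2a2 of hepatocytes was at 9.70 to 10.88 (median 10.50) on FAK7 and 4.38 to 5.005 (median 4.45) on FAK1, and the insulin-responsive Slc2a4 at 4.50 to 4.82 (median 4.64) and 9.41 to 10.14 (median 10.005). Among glycerol channels, Aqp9 was higher on FAK7 by at least 166-fold and Aqp7 higher on FAK1 by 4.63 ± 0.20. Liver genes took 1 side of each pair and genes of fat or muscle the other.

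The same held for CIDE proteins, with Cideb 5.34 ± 0.21 higher on FAK7, and Cidea and Cidec (3.93 ± 0.14) higher on FAK1. Fbp1 and Fbp2, fructose bisphosphatases of liver and muscle, lay at 7.79 and -2.26. Pklr, pyruvate kinase of liver and red cells, was at 5.30 to 7.83 (median 7.14) on FAK7 and 4.21 to 4.48 (median 4.33) on FAK1, and Pkm at 8.29 to 9.90 (median 8.74) and 12.41 to 13.002 (median 12.87). Fatty acid transport proteins ran from Slc27a5, through Slc27a2 (1.59 ± 0.15) and Slc27a4 (0.25 ± 0.095, overlapping), all higher on FAK7, to Slc27a1, 2.98 ± 0.14 higher on FAK1.

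**Figure D4:**
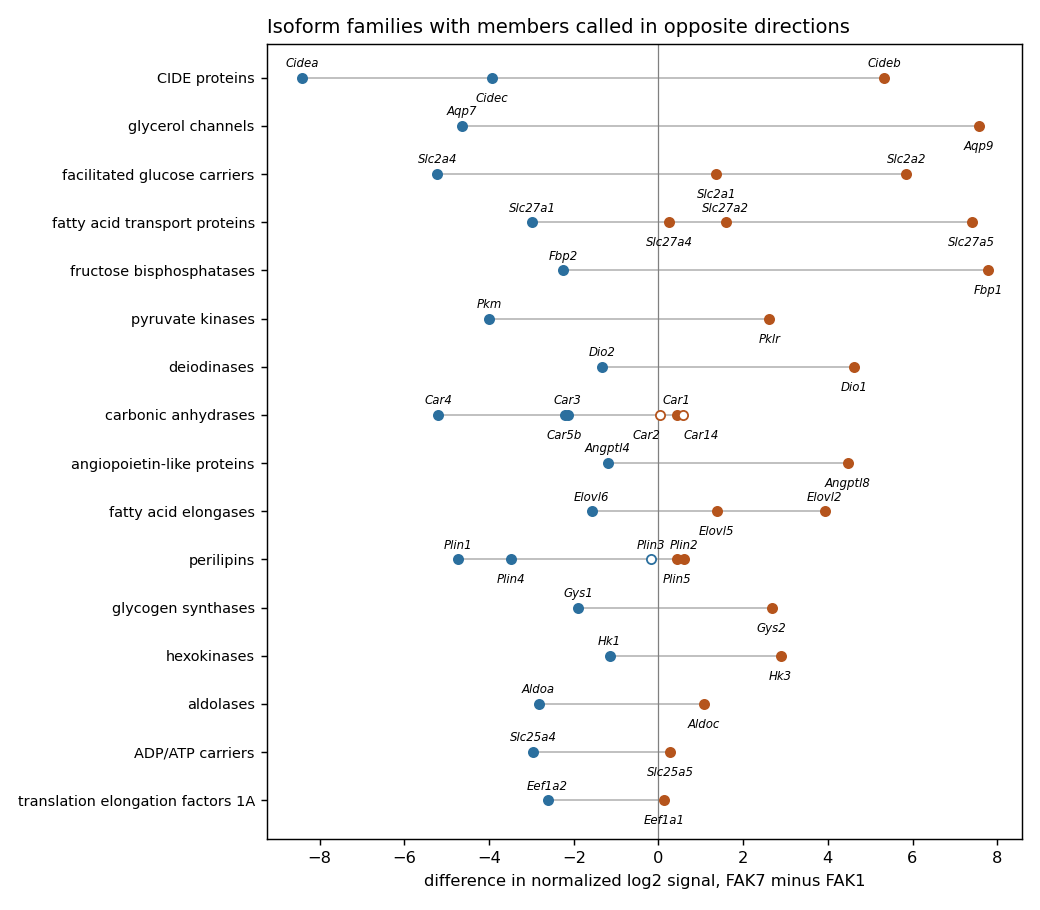
Difference in normalized log2 signal, FAK7 minus FAK1 (horizontal axis), of the tested members of the 16 isoform families with members called in opposite directions, filled when called and open when not, and ordered by the distance between the extreme members. CIDE proteins span the widest range, from Cidea at -8.43 to Cideb at 5.34, and elongation factors 1A the narrowest, from Eef1a2 at -2.62 to Eef1a1 at 0.14.

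In 10 further families the opposed members were less far apart on at least 1 side. Dio1, the deiodinase of liver, was at 7.06 to 10.01 (median 9.35) on FAK7, lowest on treated replicate 1, and undetected on FAK1 (at least 19.3-fold), while Dio2, detected on 5 FAK1 arrays and 0 FAK7 arrays, was at least 2.05-fold higher on FAK1 with overlap. Gys2 and Gys1, glycogen synthases of liver and muscle, differed by 2.68 ± 0.27 toward FAK7 and 1.90 ± 0.12 toward FAK1. Angptl8 was 4.47 ± 0.44 higher on FAK7 and Angptl4 1.20 ± 0.17 higher on FAK1. Elongases split into Elovl2 (3.92 ± 0.15) and Elovl5 (1.37 ± 0.098) toward FAK7 and Elovl6 (1.58 ± 0.25) toward FAK1. Hk3, a hexokinase of myeloid cells, was 2.89 ± 0.24 higher on FAK7 and Hk1 higher on FAK1 by at least 1.74-fold. Aldoc and Aldoa differed by 1.08 ± 0.16 toward FAK7 and 2.83 ± 0.11 toward FAK1.

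Perilipins coat lipid droplets, and their members differed in direction. Plin1, of adipocytes, was at 9.03 to 9.63 (median 9.10) on FAK1 and undetected on FAK7 (at least 20.2-fold), and Plin4 was 3.49 ± 0.19 higher on FAK1. Plin2 and Plin5 were 0.60 ± 0.15 and 0.45 ± 0.16 higher on FAK7 with overlap, and Plin3 was not called (0.17 ± 0.14 toward FAK1). The mean of the 2 Plin5 probes, however, was -0.66. Slc25a4, the ADP/ATP carrier of heart and muscle, was higher on FAK1 by at least 5.38-fold and Slc25a5 0.27 ± 0.086 higher on FAK7 with overlap. Carbonic anhydrases ranged from Car4 (5.20 ± 0.13), Car5b (2.22 ± 0.20) and Car3 (2.14 ± 0.40), all higher on FAK1, to Car1 (0.43 ± 0.17 higher on FAK7), with Car2 (0.05 ± 0.18) and Car14 (0.59 ± 0.34) not called. Eef1a2 and Eef1a1 were called toward FAK1 and FAK7, but with FAK1 untreated replicates 1 and 3 alone Eef1a2 was at 0.59, and with the mean of probes Eef1a1 was at -1.41.

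In the remaining 10 families with several tested members no opposed calls were made. All 3 phosphofructokinases were higher on FAK1 (Pfkl 2.26, Pfkm 3.10, Pfkp 2.28), as were 3 of 3 glycogen phosphorylases and 3 of 3 fatty acid binding proteins tested. Of the phosphorylases, Pygm of muscle was detected on 4 FAK1 and 0 FAK7 arrays, at 6.96, 7.41 and 5.59 on treated and 4.34, 5.11 and 4.65 on untreated FAK1 replicates, with the higher values where muscle transcripts were high. Both lactate dehydrogenases were higher on FAK1, Ldhb by 1.19 ± 0.22 and Ldha by 0.39 ± 0.12. Of the pyruvate dehydrogenase kinases, Pdk4, induced by fasting, was at 13.02 to 13.72 (median 13.18) on FAK1 and 7.38 to 9.90 (median 8.04) on FAK7, Pdk2 was 2.27 ± 0.12 higher on FAK1, and Pdk1 and Pdk3 were not called. Ucp3 was higher on FAK1 by at least 6.41-fold, next to Ucp1. The ubiquitous subunits Cox6a1 and Cox7a2 were 1.41 ± 0.061 and 1.22 ± 0.14 higher on FAK1. Cox6a2, their muscle and brown fat counterpart, was 3.26 ± 1.05 higher on FAK1, but it was at 4.70 and 6.47 on FAK1 untreated replicates 1 and 3 and at 10.39 to 12.39 on the other 4. With those 2 arrays alone its difference was 0.99 toward FAK7 and not called. Ppara and Ppard differed by 0.53 ± 0.22 and 0.51 ± 0.13 toward FAK1 with overlap, against 4.01 ± 0.11 for Pparg. Cpt1a, of the carnitine palmitoyltransferases, was not called, but it lay near background, at 4.78 to 5.38 on FAK7 and 4.75 to 5.15 on FAK1. The same held for Pdk3, at 4.76 to 5.38 on FAK7 and 4.69 to 5.52 on FAK1.

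Markers of other cells differed too, and their part in the differences above was not tested. In bulk samples, fewer cells of a type and less RNA per cell cannot be told apart. Liver sinusoid genes were higher on FAK7 for 5 of 6 tested, with Clec4g at 10.90 to 11.75 (median 11.53) on FAK7 and 4.56 to 5.03 (median 4.69) on FAK1 and Stab2, a scavenger receptor, higher by at least 16.4-fold. Their summed linear signal was 3640 to 5417 on FAK7 arrays and 309 to 475 on FAK1 arrays. General endothelial genes ran the other way, with 12 of 14 higher on FAK1 (6 at least 4-fold; median -1.88) and summed signals of 2732 to 3228 and 9565 to 11391. Pecam1, of endothelial junctions, was at 9.17 to 9.82 (median 9.48) on FAK1 and 6.34 to 6.75 (median 6.49) on FAK7, Cd300lg was 3.79 ± 0.085 higher on FAK1, and Eng and Vwf were 0.60 ± 0.16 and 0.49 ± 0.12 higher on FAK7.

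Of 7 Kupffer cell genes, 6 were higher on FAK7 (4 at least 4-fold), and of 11 macrophage genes 10 (3 at least 4-fold). Vsig4 was at 10.18 to 11.23 (median 10.64) on FAK7 and 4.54 to 4.92 (median 4.78) on FAK1, and Clec4f at 8.82 to 9.91 (median 9.35) and 4.35 to 4.99 (median 4.44). Neither overlapped between labels. Tyrobp, a signalling adaptor of myeloid cells, was 2.55 ± 0.21 higher on FAK7, with treated replicate 1 highest at 9.78. The summed signal of Kupffer genes was 5426 to 12855 on FAK7 and 1069 to 2070 on FAK1. Slc40a1, a further member, was at 11.74 to 12.97 on FAK7 and 9.69 to 10.82 on FAK1 and made up much of both sums. Marco, also of that list, was undetected on FAK1, so the FAK1 sum is no measure of Kupffer cells. Of 8 stellate cell genes, 5 were higher on FAK7 (5 at least 4-fold), such as Lrat, which stores retinol (at least 12.2-fold), and 2 on FAK1, Des (2.66 ± 0.34) and Rgs5 (2.33 ± 0.18). Fibroblast genes were higher on FAK1 for 10 of 13 (6 at least 4-fold), with Col3a1 at 8.79 to 11.74 (median 11.22) on FAK1 and 5.20 to 6.01 (median 5.47) on FAK7, and a summed signal of 16783 to 32674 on FAK1 against 8851 to 11994 on FAK7.

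**Figure D5:**
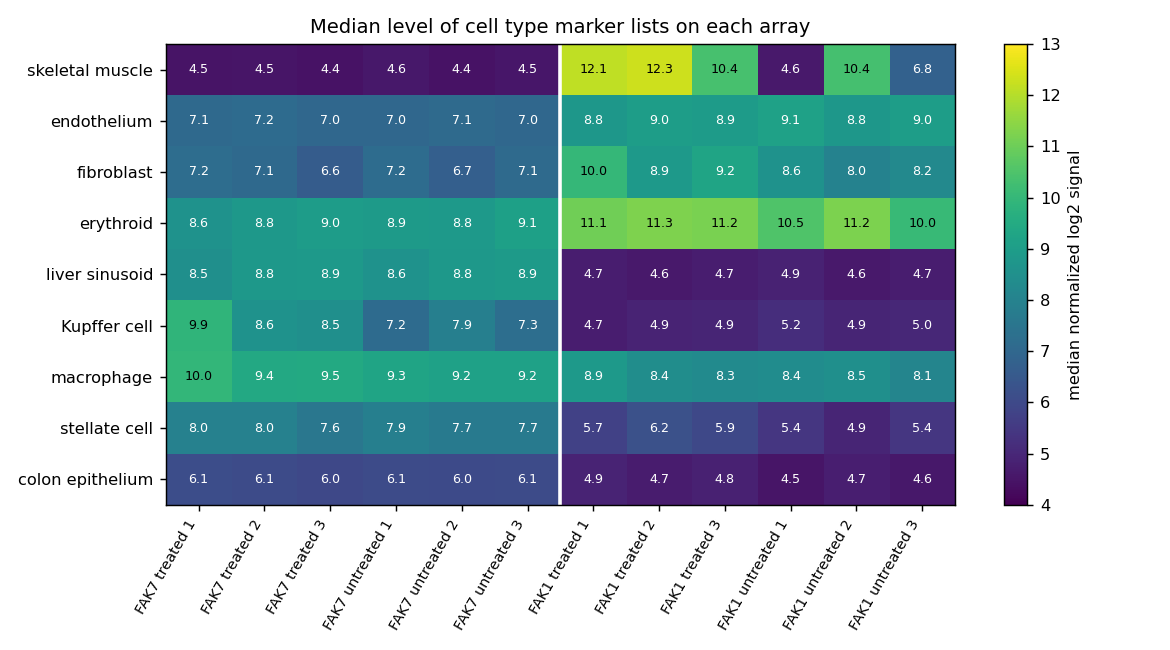
Median normalized log2 signal (colour scale and printed number) of 9 cell type marker lists (rows) on each of the 12 arrays (columns, FAK7 left and FAK1 right of the white line). Sinusoid and Kupffer lists are high on FAK7 arrays and near background on FAK1 arrays, and the muscle list runs from 4.62 to 12.33 over the 6 FAK1 arrays.

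Skeletal muscle genes gave 15 of 17 called toward FAK1, 15 at least 4-fold, with a median of -4.88, which was -1.22 with FAK1 untreated replicates 1 and 3 alone. Their summed linear signal ran from 3691 to 144572 over the FAK1 arrays and from 489 to 553 on FAK7, where 11 of the 17 were detected on no array. Myh7, a slow myosin, was 1.90 ± 0.17 higher on FAK7, though its other probe gave 0.05. Of 5 erythroid genes, 4 were higher on FAK1 (2 at least 4-fold), Hba-a1 and Hbb-bt by 1.22 ± 0.13 and 1.08 ± 0.14. Smooth muscle genes were higher on FAK1 for 4 of 6 (2 at least 4-fold), Notch3 by 3.77 ± 0.14, and of 4 nerve genes 4 were, but 0 at least 4-fold by the fit, S100b being at least 2.57-fold higher. Of 5 lymphocyte genes, 4 were higher on FAK7 (1 at least 4-fold), with Cd52 2.23 ± 0.30 higher and Cd3g 1.06 ± 0.15 higher.

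Among colon epithelium genes, 11 of 20 passed the filter on low signals, and 8 of these were higher on FAK7 (4 at least 4-fold). They included Krt8 and Krt18, the keratins of simple epithelia that hepatocytes share, at 11.87 to 12.90 (median 12.16) and 10.69 to 11.64 (median 10.83) on FAK7 and undetected on FAK1 (at least 169-fold and 68.4-fold). Cldn3, a tight junction protein, was at 9.73 to 10.21 (median 10.06) on FAK7, and the water channel Aqp8 at 8.24 to 9.09 (median 8.65). FAK7 treated replicate 1 was highest for both keratins. Muc2, the goblet cell mucin, was 1.59 ± 0.095 higher on FAK1, at 5.86 to 6.20 (median 6.03). Epcam, Cdx2 and Fabp2 were detected on 0 of 12 arrays. Cdx1, Krt19, Krt20 and Cdh17 were each detected on 1 of them. Vil1 was detected on 1 FAK7 and 1 FAK1 array, and Slc26a3 on 1 FAK7 and 3 FAK1 arrays. Bile duct genes were sparse, with Krt7 at 4.89 to 5.57 (median 5.28) on FAK7 and 4.33 to 4.87 (median 4.40) on FAK1, and Sox9 1.43 ± 0.42 higher on FAK7.

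Developmental Hox genes, which record position along the body, were higher on FAK1 for 11 of 13 tested (5 at least 4-fold), with a median of -1.89 and 0 higher on FAK7. Hoxc6 was at 8.45 to 9.62 (median 9.13) on FAK1 and 4.49 to 4.96 (median 4.75) on FAK7, Hoxa5 at 9.20 to 9.73 (median 9.40) and 5.95 to 6.60 (median 6.18). Hoxd8 was higher on FAK1 by at least 6.8-fold, and Hoxa4 by 2.85 ± 0.19. Without the filter on low signals the median was -0.32, since 24 members then entered. Of 12 genes often used as references, 7 were higher on FAK7 (1 at least 4-fold) and 2 on FAK1 (0 at least 4-fold), with a median of 0.38. Rpl13a and Gusb were 2.001 ± 0.078 and 1.96 ± 0.13 higher on FAK7 and Pgk1 1.48 ± 0.12 higher on FAK1, each without overlap.

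Some genes at least 4-fold higher on FAK7 lay side by side on the chromosome. Counting runs of at least 3 consecutive tested genes, 31 runs held 120 genes, 13.2% of those with a chromosomal position in RefSeq. On FAK1, 3 runs held 9 genes, 1.23% of those at least 4-fold higher there with such a position. The share to be expected without any clustering was not computed. The longest run, of 11 genes on chromosome 12, was the Serpina cluster from Serpina10 to Serpina3n, plasma protease inhibitors. Others were 6 genes on chromosome 9 (Apoa1, Apoc3, Apoa4, Apoa5, Zpr1 and Bud13), 6 Mup genes on chromosome 4, which encode urinary pheromone carriers, and a run with Ugt1a members on chromosome 1. On FAK1 the runs were Rxrg, Rgs5 and Rgs4 on chromosome 1, Acss1, Entpd6 and Pygb on chromosome 2, and Syn2, Timp4 and Pparg on chromosome 6. Near-identical copies within such families can share probe signal, and members of the Serpina1, Mup and Ugt clusters are uncertain as separate genes.

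The difference between labels depended on treatment for few genes. The interaction of label and treatment was called for 44 of 10868 genes (0.405%). That count was 9 without FAK1 treated replicate 1 and 150 without FAK1 untreated replicate 2. Saa1, an acute phase protein of liver, was at 13.25, 14.46 and 14.63 on treated and 9.86, 10.28 and 9.92 on untreated FAK7 arrays, and at 4.46 to 4.87 on FAK1. Its difference was 3.96 ± 0.39 log2 units larger on treated arrays (adjusted p = 0.00112). Saa1 was detected on only 1 FAK1 array, so this size is set against FAK1 levels near background. Saa2 was at 8.57, 9.78 and 10.29 on treated and 5.63, 6.12 and 5.82 on untreated FAK7 arrays and detected on 0 FAK1 arrays (interaction adjusted p = 0.0106). All treated FAK7 arrays were above all untreated ones for both. Actc1, cardiac actin, was at 8.43, 9.33 and 8.54 on treated and 4.51, 5.01 and 4.71 on untreated FAK1 arrays and detected on 0 FAK7 arrays (interaction adjusted p = 0.000124). For Saa2 and Actc1 the interaction therefore has no measured size. Mal, a membrane proteolipid detected on 1 FAK7 array, gave -1.53 ± 0.21 (adjusted p = 0.0131). Within treated arrays alone, 860 of the 912 genes at least 4-fold higher on FAK7 and 685 of the 735 on FAK1 kept that call, and within untreated arrays alone 845 and 619. The 2 FAK1 arrays with low Xist and lower muscle transcripts were both untreated, while untreated replicate 2 was like the treated arrays in both, so treatment under FAK1 is in part mixed with that split. The Actc1 level of untreated replicate 2, 5.01, was near that of the other untreated arrays.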

How the data were processed

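RNA was amplified to biotin-labelled cRNA and hybridised to Illumina mouse bead arrays, 1 array per sample, per the labels' protocols. The deposited intensity of each probe was not normalized between arrays but, from its values, background had been subtracted, since 23.2% to 30.9% of probes were below 0 on an array. A detection p-value per probe and array stood beside it, per the file headers. The software that made them is not given in the sources used here. All 54 value columns were matched to samples by name. A second deposited table, of intensity values already brought to a common distribution by quantile, was used as an alternative.

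Signals of all 18 arrays were background-corrected from the detection p-values and quantile-normalized with neqc (limma 3.58.1, R 4.3.3; offset 16), on the log2 scale. A probe was kept if some group of 3 arrays detected it throughout (p under 0.05), which left 20039 of 45281 probes, 3009 of them without a usable symbol. Over all probes, 34885 had 1 gene symbol, 18 several and 10378 none in the platform annotation, and 34807 matched the gene table with 0 renamed. Each of the 10868 genes was read by its brightest probe. Several probes were kept for 4193 genes, and in 544 they were called in opposite directions. Label and treatment were fitted with limma with an intensity trend, with 2-sided tests, with Benjamini-Hochberg adjustment over all genes. The number of arrays limits the precision. The fit was tested on simulated data.

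The 44 gene lists, the 34 isoform families and the members were chosen with earlier results of these data known. Named genes are the 8 largest differences in each direction among genes detected on all arrays, the 8 largest bounds in each direction, the 4 markers, up to 4 members of each list in its main direction and 3 against it, all isoform family members, and the 4 smallest interaction p-values. Same-numbered arrays were not treated as pairs in the main fit. The correlation of their deviations from group means was -0.05 to 0.29 over 18 pairs, with 5 above 0.1, which does not settle whether they pair. Alternatives covered normalization, filter, probe choice, variance model, blocks and samples, all on quantile-normalized values. For 1 allele carried by the mice, the name is not reported here.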

Additional observations from a re-analysis of the deposited data

Results flagged for a closer look

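Of 509 groups of 6 arrays tested over the 285 named genes, 60 held an array that lay far from the other 5 by Dixon's ratio, and chance flags about 1 in 20. FAK7 treated replicate 1 held 26 of them and FAK1 untreated replicate 2 held 17. No explanation was tested for any of these values, all of which are normalized log2 levels. FAK7 treated replicate 1 was low for genes of liver metabolism. Levels there were Gsta3 at 13.29, Ces1c at 13.35, Slco1b2 at 12.18, Cyp1a2 at 11.32, Ugt2b36 at 12.59 and Sult1d1 at 8.87. Lower than on the other 5 arrays were also Mat1a at 14.32, G6pc at 7.67, Gulo at 10.97, Slc1a2 at 7.90, Cyp2f2 at 11.27 and Igfals at 9.82. The same array had Slc29a1 at 9.40, Fgf1 at 7.32, Gcgr at 9.92, Lpin1 at 7.08, Acacb at 7.61 and Dpp4 at 9.78. Its low values included Dio1 at 7.06. The widest gap was that of G6pc, glucose-6-phosphatase, at 7.67 against 11.47 to 12.30 on the other FAK7 arrays. It was high for Acss1 at 6.13, Igf1r at 6.29, Tyrobp at 9.78, Colec11 at 9.61, Krt8 at 12.90 and Krt18 at 11.64. High there too was Pkm at 9.90. These included the epithelial keratins and Tyrobp of myeloid cells, and the median level of the Kupffer list was 9.89 on that array against 7.16 to 8.59 on the other 5.

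On FAK1 untreated replicate 2, several fat and mitochondrial genes were low. Levels were Cox7a1 at 13.08, Cav1 at 12.73, Acin1 at 11.58, Lncbate10 at 9.36, Ppp1r3c at 10.50 and Oxct1 at 11.19. Lower than on the other 5 FAK1 arrays were also Axin2 at 6.56, Lep at 7.17, Thrsp at 12.17, Cox7b at 10.83, Rgs5 at 8.48 and Mylk at 8.62. The array further had Pfkl at 11.04. Higher than on the others were Igf1r at 7.43, Krt7 at 4.87, Fbp2 at 9.25 and Pdk4 at 13.72.

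FAK7 untreated replicate 1 was high for Ucp1 at 5.91, Cidea at 5.91, Mal at 5.09, Fabp3 at 5.14 and Cox8b at 6.78, of which Ucp1, Cidea, Fabp3 and Cox8b are brown fat genes. It was low for Gpihbp1 at 8.59 and Cox7b at 5.93. Of 39 genes at least 16-fold higher on FAK1 and undetected on the other 5 FAK7 arrays, 6 were detected on it (15.4%), against 0 to 2 of 33 to 35 on each other FAK7 array. By the same measure for liver genes, FAK1 arrays detected 6 of 134 (4.48%, treated replicate 1) to 20 of 147 (13.6%, untreated replicate 2). FAK1 treated replicate 1 lay apart for Apoa1 at 5.15. FAK1 treated replicate 3 lay apart for Saa1 at 4.87 and Slco1b2 at 4.92. FAK1 untreated replicate 1 lay apart for Clec4g at 5.03. FAK1 untreated replicate 3 lay apart for Fabp4 at 11.82, Cfi at 5.16, Clec4f at 4.99 and Plin3 at 9.31. FAK7 untreated replicate 2 lay apart for Hoxa4 at 5.32. FAK7 untreated replicate 3 lay apart for Ncam1 at 4.87.

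The label difference depended on treatment for 6 named genes. The interaction, the label difference on treated minus that on untreated arrays, was -4.06 for Actc1, 3.96 for Saa1, 3.61 for Saa2 and -1.53 for Mal. Actc1 was detected on 0 FAK7 arrays and Saa2 on 0 FAK1 arrays, so that their values are fitted against background and measure no size. Saa1 was detected on only 1 FAK1 array, so its value is set against levels near background. The interaction was -2.39 for Ppp1r3c (adjusted p = 0.0354 by limma) and -0.96 for Igfbp4, a binding protein of insulin-like growth factors (adjusted p = 0.0233).

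Among the 3009 kept probes without a usable symbol, which no comparison used, 380 were called at least 4-fold apart, 163 higher on FAK7 and 217 on FAK1, and 52 and 44 at least 16-fold.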

How the results depend on the processing

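In all 32 alternative settings the counts of genes called stayed within 1.5 times of the values reported, from 3428 to 4803 higher on FAK7, 3689 to 4965 higher on FAK1, and at least 4-fold 832 to 955 and 639 to 780. Every setting, however, used quantile-normalized values, so the settings cannot show how these counts depend on that scaling. Leaving out each array in turn gave 4005 to 4113, 4385 to 4545, 902 to 924 and 721 to 746. Averaging the probes of a gene kept 821 of the 912 and 601 of the 735 genes at 4-fold. With the replicate block the 4 counts were 4096, 4482, 912 and 735, with 50 interaction genes; 7 of 12 arrays correlated best with their own number, a hint from the data and not the design.

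The interaction count of 44 was the least stable. It was 367 with array weights, 2 at an adjusted p under 0.01 and 158 without both arrays that stood apart, a setting added after seeing the data. Leaving out single arrays gave 9 to 150. It was 9, 17 and 119 without FAK1 treated replicates 1 to 3, and 101, 150 and 21 without FAK1 untreated replicates 1 to 3. It was 29 without FAK7 treated replicate 1 and 9 without each of FAK7 untreated replicates 1, 2 and 3. No interaction value was computed for the random block, the 4 mean profiles, the settings of a single treatment or that with FAK1 untreated replicates 1 and 3 alone. The cause was not tested.

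Of 285 named genes, 248 kept their side of the threshold in every setting they entered, 31 fell short of it and 4 passed it in at least 1. The 248 kept their direction as well where they were called. A gene called in neither fit counted as kept whatever its sign. With the mean of probes, 4 turned, Atp5j to -1.31, Plin5 to -0.66, Car2 to -0.56 and Eef1a1 to -1.41. With FAK1 untreated replicates 1 and 3 alone, Cox6a2 turned to 0.99 and Eef1a2 to 0.59, neither called. Levels near background and near the top of the scale, where 25 genes lay within 0.5 of 14.77 on FAK7, limit the differences.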

Other observations

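Genes encoded in mitochondrial DNA, each read by 1 probe, did not move together. ND4L was higher on FAK1, with a difference of -6.45, as were COX2 (-2.37), ATP6 (-2.06), ND1 (-0.85) and CYTB (-0.38). ND6, detected on 0 of 6 FAK7 arrays, was at least 69.6-fold higher on FAK1. ND5, detected on 0 of 6 FAK1 arrays, was at least 7.4-fold higher on FAK7, and ND4 was not called (0.07). The cause of the spread between these probes was not tested.

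Fgb, the fibrinogen beta chain, was detected on 0 of 6 FAK7 and 0 of 6 FAK1 arrays, while Fga and Fgg were detected on all 6 FAK7 arrays and on 0 FAK1 arrays. Elovl3, an elongase of brown fat, was detected on 2 FAK7 arrays and on 0 FAK1 arrays. Nr0b2, a repressor of bile acid synthesis, was detected on 0 arrays of either label.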
